A study of Mus musculus with 18 samples.

Results

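The 38 genes described here encode the BCL2 family, 5 caspases, mitochondrial death factors, inhibitors of apoptosis, death receptor adaptors and the necroptosis kinases with their effector. They were chosen by symbol from a fixed list, and all 38 were found among the 55487 Ensembl genes counted. RNA of whole tissue was sequenced from the subcutaneous white adipose tissue (sWAT) of 4 Ctrl and 4 Csn8AKO mice aged 12 weeks, and from the brown adipose tissue (BAT) of 5 Ctrl and 5 Csn8AKO mice aged 4 weeks. All 18 mice were male, ate chow and were fasted for 4 h. Every mouse carried the floxed Csn8 f/f alleles, and Csn8AKO mice also carried Cre recombinase under the adiponectin promoter, which is active in mature adipocytes, so that exons 4 to 6 of Csn8 are removed there and remain in the other cells of the tissue. Csn8 is named Cops8 in the files and encodes the smallest subunit of the COP9 signalosome, which removes NEDD8 from cullins. Tissue and age cannot be told apart, as each tissue was taken at its own age. The question was whether the genes that carry out or restrain cell death differed in expression between genotypes within each tissue.

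Apoptosis through mitochondria is decided by members of the BCL2 family. The effectors BAX and BAK1 open pores in the outer mitochondrial membrane, pro-survival members such as BCL2 and MCL1 bind and restrain them, and BH3-only proteins release that restraint. Cytochrome c that leaves the mitochondrion assembles with APAF1 and caspase 9 into the apoptosome, whereas caspase 8 is activated at death receptors, and inhibitor of apoptosis proteins (IAPs) hold back caspases or the signals that lead to them. Necroptosis runs through RIPK1, RIPK3 and MLKL when caspase 8 is not active. Much of this machinery is regulated at the protein level, which RNA counts do not measure.

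Between 15835721 and 23109603 reads were counted per sWAT library and between 26658593 and 66719937 per BAT library. Rn18s-rs5, a ribosomal RNA gene, held 1.73% to 46.8% of the counts in sWAT and 0.711% to 12.4% in BAT, and the highest shares in sWAT were in Csn8AKO replicates 3 (31.1%) and 4 (46.8%). Values below are CPM, the read counts scaled to the TMM-adjusted library size within a tissue. Cops8 itself had 35.0 ± 0.911 CPM (SD, n = 4) in Ctrl and 32.2 ± 2.98 CPM in Csn8AKO sWAT (edgeR quasi-likelihood test with Benjamini-Hochberg adjustment, adjusted p = 0.623), and it fell from 39.4 ± 3.22 to 32.1 ± 3.56 CPM (SD, n = 5) in BAT (same test, adjusted p = 0.0211). The count of Cops8 includes the exons that are not deleted and reads of cells without Cre, so that it is a weak check of the deletion. Summed brown adipocyte markers were at 2849 to 7646 CPM in BAT and 30.3 to 167 CPM in sWAT, and summed adipocyte markers were at 9082 CPM or more in every library. The 18 macrophage markers, none of them at 0 throughout, summed to 1415 to 1927 CPM in Ctrl and 2405 to 3922 CPM in Csn8AKO sWAT, and to 158 to 213 CPM and 516 to 760 CPM in BAT. Adipocyte markers summed to 23368 to 32285 CPM in Ctrl and 9082 to 21166 CPM in Csn8AKO sWAT, and their ranges overlapped in BAT. Fibroblast and progenitor markers in BAT summed to 1042 to 1780 CPM in Ctrl and 2736 to 4687 CPM in Csn8AKO mice, and T cell markers to 5.00 to 8.82 CPM and 9.89 to 17.2 CPM. In sWAT, Ctrl replicate 1 and Csn8AKO replicate 2 stood apart with 327 and 454 CPM of T cell markers, against at most 47.8 CPM in the other libraries. In BAT, Csn8AKO replicates 1 and 5 stood apart with 125 and 212 CPM of skeletal muscle markers, against at most 15.1 CPM in the others. Some fits below take lymphocyte markers as a covariate, or leave out ribosomal RNA genes or libraries rich in them. These fits show how the calls move. How much of a change comes from these markers or from ribosomal RNA was not tested. In bulk tissue, fewer cells of a type and less RNA per cell cannot be told apart.

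In Csn8AKO sWAT, the effector gene Bax and the pro-survival gene Mcl1 rose, and no member fell. In Csn8AKO BAT, 10 members rose and 2 fell. The risers in BAT were the effectors Bax and Bak1, the pro-survival genes Bcl2 and Mcl1, the BH3-only genes Bid and Bcl2l11, the apoptosome gene Apaf1, the IAP gene Birc5, and Ripk1 and Ripk3 of the necroptosis pathway. The pro-survival gene Bcl2l2 and the IAP gene Birc2 fell there. Of the 5 caspase genes, 0 passed the test in either tissue.

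These counts were close to those of the whole transcriptome. In sWAT, 35 members passed the filter on low counts and 2 of them (5.71%) were called by edgeR at an adjusted p under 0.05, against 5.31% of all 18843 genes tested (2.30% higher and 3.00% lower). In BAT, 36 members were tested and 12 (33.3%) were called, against 31.9% of 22345 genes. The direction differed more from that background, with 27.8% of the tested members higher and 5.56% lower in BAT, against 16.0% and 15.8% of all genes. The median log2 fold change of the tested members was 0.04 in sWAT and 0.18 in BAT, beside 0.03 and 0.01 over all genes. For the 0 members lower in sWAT, 2 (Bik and Aifm1) had an unadjusted p under 0.05 by edgeR, and DESeq2 and limma voom called 0. The libraries of the genotypes did not overlap for 5 members in sWAT (14.3%, against 14.0% of all genes) and for 5 in BAT (13.9%, against 21.0%). In sWAT, 4 of the 35 tested members did not overlap and were higher in Csn8AKO mice, against 1092 of all 18843 genes (5.80%). In BAT these were 4 of 36 members, against 2260 of 22345 genes (10.1%). Bcl2a1b and Bcl2a1d were too low to be tested in both tissues, and Hrk in sWAT.

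**Figure D1:**
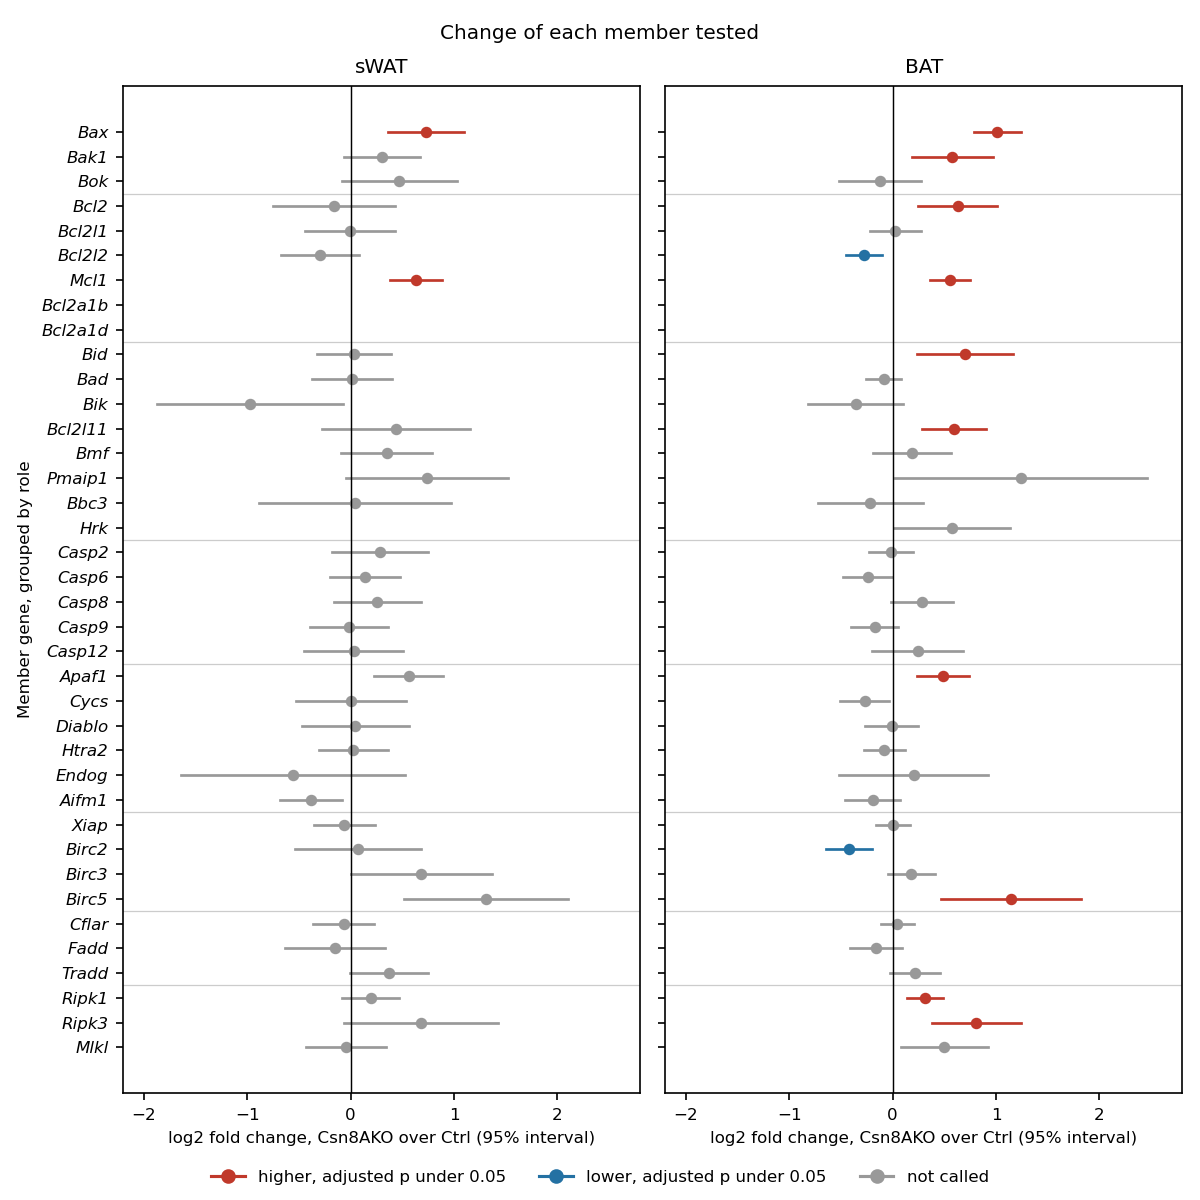
The log2 fold change of Csn8AKO over Ctrl (x axis) is plotted for each member tested in sWAT (left) and BAT (right), grouped by role from effectors at the top to necroptosis genes at the bottom. Points are edgeR estimates and lines are 95% intervals. Red marks the 2 members higher in sWAT and the 10 higher in BAT, blue the 2 lower in BAT, and grey the members that were not called.

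Among the effectors, Bax (ENSMUSG00000003873, GRCm38 chromosome 7, 45461697 to 45466898, minus strand) rose in both tissues. In sWAT it had 10.0, 9.52, 6.81 and 8.98 CPM in the 4 Ctrl libraries and 13.5, 16.1, 14.3 and 14.8 CPM in the 4 Csn8AKO libraries. Every Csn8AKO library was above every Ctrl library. In edgeR its log2 fold change was 0.73 with a standard error of 0.17 (edgeR, adjusted p = 0.0347). In BAT, Bax had 8.40, 7.74, 7.16, 8.60 and 8.83 CPM in Ctrl and 15.2, 14.5, 16.8, 19.1 and 16.5 CPM in Csn8AKO libraries. The groups again did not overlap, and the 5 Ctrl libraries lay within a narrow band. Its log2 fold change in BAT was 1.01 with a standard error of 0.11 (edgeR, adjusted p = 1.01e-05), or 2.02-fold, and it was the smallest adjusted p among the members. The call in sWAT was lost when Ctrl replicate 2, 3 or 4 or Csn8AKO replicate 1, 3 or 4 was left out (adjusted p 0.0596 to 0.101), without a filter on low counts (adjusted p = 0.0703) and with scaling by library size alone (log2 fold change 0.65, adjusted p = 0.683), and without both Csn8AKO replicates 3 and 4 (log2 fold change 0.72, adjusted p = 0.145), whereas no alternative ended the call in BAT. Of the exon bases of Bax, 12.2% are shared with Gm45808 on the same strand.

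Bak1 (ENSMUSG00000057789, chromosome 17, 27019810 to 27029009, minus strand), the other main pore former, rose in BAT. It had 19.0, 18.6, 15.6, 12.7 and 24.0 CPM in Ctrl and 28.1, 17.1, 30.8, 29.9 and 28.0 CPM in Csn8AKO libraries. Of the Csn8AKO libraries, 4 were above every Ctrl library and replicate 2 was below 3 of them. By edgeR, the difference on the log2 scale was 0.58 with a standard error of 0.18 (edgeR, adjusted p = 0.0269). This call was lost without Ctrl replicate 3 or 4, without Csn8AKO replicate 1, 3, 4 or 5 (adjusted p 0.0513 to 0.0675) and without the filter on low counts (adjusted p = 0.0692). In sWAT Bak1 was at 15.8 ± 2.40 CPM in Ctrl and 19.6 ± 2.97 CPM in Csn8AKO mice (SD, n = 4; edgeR, adjusted p = 0.341). Bok, a distant relative that can form pores without the others, was not called in either tissue (adjusted p = 0.334 in sWAT and 0.655 in BAT). An exon overlap of 18.2% with the antisense gene Ggnbp1 (7.4% for another entry of that name) may have lowered the Bak1 count. Only unambiguous reads were counted, and the strand used in counting is not stated.

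The promoters of Bax and Mcl1, the members called in both tissues, are shown because they can be compared directly for the short motifs through which death and stress genes are often regulated. The sequences are the 250 bases before the RefSeq start of each gene in GRCm38.p6, from chr7:45466899-45467148 on the minus strand for Bax and chr3:95658471-95658720 on the plus strand for Mcl1, written 5′ to 3′ with the motif matches in capitals.
Bax: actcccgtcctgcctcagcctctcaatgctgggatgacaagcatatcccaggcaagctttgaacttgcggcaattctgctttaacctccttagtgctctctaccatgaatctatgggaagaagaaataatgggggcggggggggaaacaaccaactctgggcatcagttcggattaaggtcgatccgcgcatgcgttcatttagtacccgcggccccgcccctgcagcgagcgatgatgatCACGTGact
Mcl1: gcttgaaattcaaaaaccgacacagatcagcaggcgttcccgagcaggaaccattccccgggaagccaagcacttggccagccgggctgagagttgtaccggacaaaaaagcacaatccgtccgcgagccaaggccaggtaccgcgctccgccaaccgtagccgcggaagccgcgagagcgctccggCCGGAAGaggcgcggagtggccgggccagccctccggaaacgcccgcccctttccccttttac
Motifs were searched on both strands and did not overlap in these windows. The Bax window held 1 E-box (CACGTG), 9 to 4 bases before the start, and the Mcl1 window held 1 ETS element (CCGGAAG), 63 to 57 bases before the start. The E-box was in 6.04% and the ETS element in 6.95% of 32536 such mouse windows. Among the 34 members with a window, Bax, Bbc3 and Ripk3 held the E-box, and Bcl2l11, Birc2, Mcl1 and Ripk1 the ETS element. For the p53 response element, only 1 form of the paired core was searched, and other forms and bases outside the windows were not. This form was in 0.464% of all windows and in the window of 0 members. At so low a share, 0 among 34 windows does not show that the members lack p53 elements. The CRE (TGACGTCA, 1.56% of windows) was found in Birc2 and Cycs, the STAT element (TTCNNNGAA, 7.04%) in Casp12 and Ripk1, and the TATA element (TATAAA, 12.3%) in Cflar and Xiap. These letters describe the windows and are not evidence of binding.

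Of the pro-survival genes, Mcl1 (ENSMUSG00000038612, chromosome 3, 95658788 to 95663176, plus strand) rose in both tissues. MCL1 is a short-lived protein that restrains BAK1 in particular. In sWAT it had 131, 137, 135 and 133 CPM in Ctrl and 204, 212, 204 and 209.8 CPM in Csn8AKO libraries. The spread within each genotype was small beside the gap between them. This amounted to a log2 fold change of 0.63 with a standard error of 0.11 (edgeR, adjusted p = 0.0138). In BAT it had 68.6, 68.7, 62.8, 69.4 and 66.7 CPM in Ctrl and 93.3, 82.6, 114, 93.1 and 111 CPM in Csn8AKO libraries. The groups did not overlap, and the Csn8AKO libraries were more spread than the Ctrl libraries. The log2 fold change in BAT was 0.55 with a standard error of 0.09 (edgeR, adjusted p = 0.000358). The call in sWAT was lost without Ctrl replicate 3 or 4 or Csn8AKO replicate 3 (adjusted p 0.0506 to 0.0627), with scaling by library size alone (log2 fold change 0.56, adjusted p = 0.627), and without both Csn8AKO replicates 3 and 4 (log2 fold change 0.62, adjusted p = 0.0775).

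**Figure D2:**
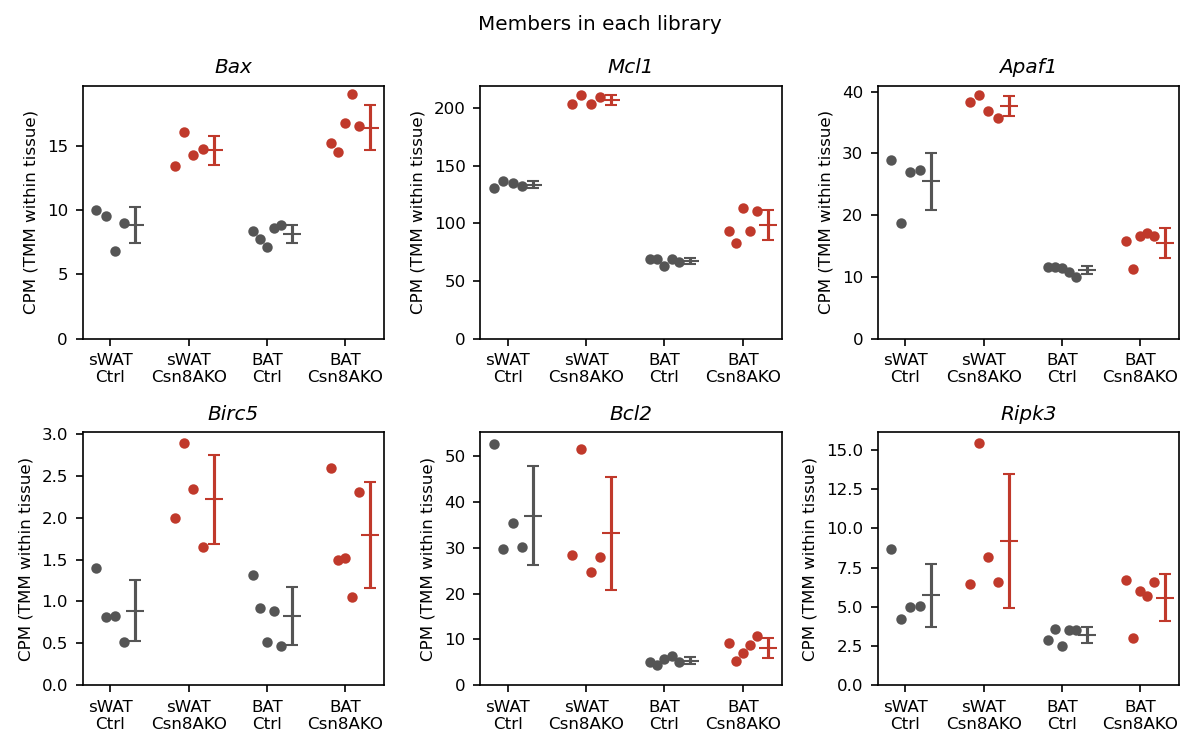
CPM after TMM normalization within a tissue (y axes, starting at 0) is plotted for 6 members in each library of the 4 groups (x axes), with the mean and SD of each group beside the points. Bax and Mcl1 are higher in every Csn8AKO library than in every Ctrl library of the same tissue, whereas the groups of Bcl2 and Ripk3 overlap.

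Bcl2 (ENSMUSG00000057329, chromosome 1, 106538178 to 106714274, minus strand), which gave the family its name, rose in BAT. It had 4.94, 4.37, 5.79, 6.29 and 5.01 CPM in Ctrl and 9.16, 5.16, 6.91, 8.84 and 10.7 CPM in Csn8AKO libraries. Csn8AKO replicate 2 lay within the Ctrl range and the other 4 were above it. The log2 fold change was 0.63 with a standard error of 0.18 (edgeR, adjusted p = 0.0156). In sWAT Bcl2 had 52.8, 29.8, 35.5 and 30.2 CPM in Ctrl and 28.3, 51.6, 24.8 and 28.0 CPM in Csn8AKO libraries, with a log2 fold change of -0.16 (standard error 0.27, edgeR, adjusted p = 0.798). The highest value of each genotype came from Ctrl replicate 1 and Csn8AKO replicate 2, the libraries with the most T cell and B cell markers. With each sWAT library left out in turn, the log2 fold change of Bcl2 lay between -0.45 and 0.06, and it was called in 0 of these fits.

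Bcl2l2 (ENSMUSG00000089682, chromosome 14, 54883377 to 54888234, plus strand), which encodes BCL-W, fell in BAT. Its Ctrl libraries had 40.4, 48.4, 47.4, 42.9 and 40.7 CPM and its Csn8AKO libraries 34.6, 40.8, 36.2, 35.8 and 34.2 CPM. The groups overlapped only through Csn8AKO replicate 2. In edgeR its log2 fold change was -0.28 with a standard error of 0.08 (edgeR, adjusted p = 0.0164), and the call was lost with scaling by library size alone (log2 fold change -0.15, adjusted p = 0.274) and with all 4 groups in one fit (adjusted p = 0.0942). In sWAT Bcl2l2 was at 48.9 ± 5.23 CPM in Ctrl and 39.9 ± 9.42 CPM in Csn8AKO mice (SD, n = 4; edgeR, adjusted p = 0.381). Of its exon bases, 13.3% are shared with Gm20521 on the same strand. Bcl2l1, which encodes BCL-XL, was not called, with log2 fold changes of -0.01 in sWAT (95% interval -0.44 to 0.43) and 0.02 in BAT (-0.22 to 0.27).

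Bcl2a1b and Bcl2a1d belong to a cluster of near-identical mouse genes for the pro-survival protein A1, which is known mainly from leukocytes. They are shown because their reads can be hard to tell apart. The first 100 bases of each coding sequence in GENCODE M21 are given 5′ to 3′, with the bases that differ between them in capitals.
Bcl2a1d: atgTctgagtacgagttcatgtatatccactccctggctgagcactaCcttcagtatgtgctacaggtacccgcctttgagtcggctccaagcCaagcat
Bcl2a1b: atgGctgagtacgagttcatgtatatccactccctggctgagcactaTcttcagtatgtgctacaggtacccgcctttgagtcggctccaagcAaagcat
Over the 519 bases of each coding sequence, 6 differed (98.84% identity). Of all stretches of 150 bases in the transcript, 30.3% for Bcl2a1d and 14.2% for Bcl2a1b occurred identically in another transcript of the cluster, and a read in such a stretch has no unique position on its own. In addition, 49.1% of the exon bases of Bcl2a1b are shared with Gm29094 on the same strand, which may also lower its count. The counts in sWAT were 0 to 19 reads for Bcl2a1b and 2 to 42 reads for Bcl2a1d. The highest Bcl2a1d count in Ctrl sWAT, 42 reads, was in replicate 1, and the highest Bcl2a1b count, 19 reads, was in Csn8AKO replicate 2. In BAT, Bcl2a1b had 0 to 2 reads in Ctrl and 0 to 12 in Csn8AKO libraries, and Bcl2a1d had 0 to 6 and 4 to 15 reads. No fold change is given for them at this depth.

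Per kilobase of exon, Mcl1 was the most abundant of the 6 pro-survival genes in both tissues and both genotypes. In sWAT it made up 59.6% to 61.2% of the summed pro-survival CPM per kilobase in Ctrl and 69.1% to 75.4% in Csn8AKO libraries. In BAT the share was 41.8% to 50.01% in Ctrl and 48.9% to 59.6% in Csn8AKO libraries, so that the ranges overlapped. Bcl2l2 made up 15.6% to 18.9% in Ctrl and 7.78% to 13.2% in Csn8AKO sWAT, and 20.1% to 24.2% and 13.7% to 18.5% in BAT. Bcl2l1 was second in BAT with mean shares of 32.0% and 27.6%, and Bcl2 held 1.296% and 1.69% there. Shares of a sum are tied to each other, and a gain of Mcl1 lowers the share of the rest.

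**Figure D3:**
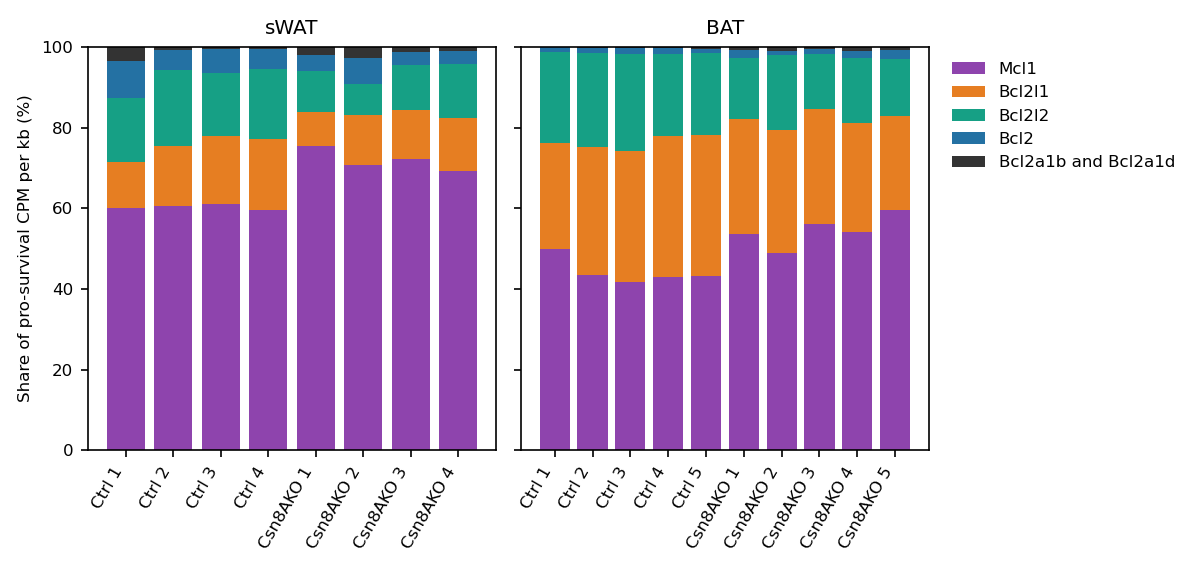
Stacked bars give the share of each pro-survival gene in the summed CPM per kilobase of exon (y axis, percent, from 0 to 100) in each sWAT library (left) and BAT library (right). Mcl1 takes 59.6% to 61.2% of Ctrl and 69.1% to 75.4% of Csn8AKO sWAT, and overlapping ranges in BAT.

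Of the 8 BH3-only genes, 7 were tested in sWAT and 8 in BAT. Bid and Bcl2l11 rose in BAT, and 0 were called in sWAT, where Bik alone had an unadjusted p under 0.05 by edgeR and DESeq2 and limma voom called 0. Bcl2l11 (ENSMUSG00000027381, chromosome 2, 128126038 to 128162547, plus strand) encodes BIM, which binds every pro-survival member. In BAT it had 9.90, 6.47, 7.26, 9.59 and 8.10 CPM in Ctrl and 16.0, 11.9, 11.4, 11.9 and 11.1 CPM in Csn8AKO libraries. The groups did not overlap, and Csn8AKO replicate 1 was the highest. By edgeR, the difference on the log2 scale was 0.60 with a standard error of 0.14 (edgeR, adjusted p = 0.00603), and the call was lost with all 4 groups in one fit (adjusted p = 0.0654). In sWAT it was at 10.8 ± 4.40 CPM in Ctrl and 14.7 ± 5.71 CPM in Csn8AKO mice (SD, n = 4; edgeR, adjusted p = 0.502).

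Bid (ENSMUSG00000004446, chromosome 6, 120891930 to 120916853, minus strand) links death receptors to mitochondria once caspase 8 cleaves its protein. In BAT it had 4.55, 5.52, 2.45, 3.14 and 4.00 CPM in Ctrl and 7.93, 5.05, 4.64, 6.89 and 7.29 CPM in Csn8AKO libraries. The groups overlapped, with Csn8AKO replicates 2 and 3 below the highest Ctrl library. This amounted to a log2 fold change of 0.70 with a standard error of 0.22 (edgeR, adjusted p = 0.0240), and it was lost without Ctrl replicate 3 or 4 or Csn8AKO replicate 1, 4 or 5 (adjusted p 0.0547 to 0.0605). Bid was at 13.2 ± 2.14 CPM in Ctrl and 13.5 ± 1.00 CPM in Csn8AKO sWAT (SD, n = 4; edgeR, adjusted p = 0.943). Of its exon bases, 17.7% lie opposite exons of Bcl2l13.

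The other BH3-only genes were not called by edgeR. Pmaip1, which encodes the p53-induced protein NOXA, had log2 fold changes of 0.74 in sWAT (95% interval -0.04 to 1.53) and 1.24 in BAT (0.03 to 2.46), with a mean of only 0.225 CPM in Ctrl BAT. Bbc3, which encodes PUMA, had 0.04 (-0.89 to 0.97) and -0.22 (-0.72 to 0.29). Bik was at 1.64 ± 0.728 CPM in Ctrl and 0.824 ± 0.283 CPM in Csn8AKO sWAT (SD, n = 4; edgeR, adjusted p = 0.208). Bad and Bmf had log2 fold changes of 0.02 and 0.35 in sWAT and -0.09 and 0.18 in BAT. Hrk was at 0.694 ± 0.138 CPM in Ctrl and 1.00 ± 0.356 CPM in Csn8AKO BAT (SD, n = 5; edgeR, adjusted p = 0.113). It was called higher there by limma voom. The unadjusted p by edgeR in BAT was 0.0464 for Hrk and 0.0458 for Pmaip1.

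Neither the initiator nor the other caspase genes passed the test. Casp8, the initiator caspase of death receptors, had 44.1, 27.6, 39.7 and 32.3 CPM in Ctrl and 39.4, 55.5, 33.5 and 43.8 CPM in Csn8AKO sWAT. The groups overlapped, and the log2 fold change was 0.26 with a standard error of 0.19 (edgeR, adjusted p = 0.507). In BAT it had 16.9, 15.6, 12.6, 14.4 and 16.3 CPM in Ctrl and 18.2, 12.1, 19.6, 20.1 and 22.0 CPM in Csn8AKO libraries. Csn8AKO replicate 2 was below every Ctrl library and the other 4 were above them all, with a log2 fold change of 0.28 over the 5 (standard error 0.14, edgeR, adjusted p = 0.146). Casp8 was called higher in BAT when that replicate was left out and by limma voom.

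Casp9, the caspase of the apoptosome, had 22.4, 27.9, 22.9 and 20.4 CPM in Ctrl and 19.7, 18.6, 27.3 and 26.6 CPM in Csn8AKO sWAT (log2 fold change -0.02, 95% interval -0.40 to 0.36). In BAT it had 21.6, 17.0, 20.7, 17.0 and 16.6 CPM in Ctrl and 18.8, 17.3, 14.3, 16.3 and 15.5 CPM in Csn8AKO libraries (log2 fold change -0.17, 95% interval -0.40 to 0.06). The groups of Casp9 overlapped in both tissues. Casp2 and Casp6 had log2 fold changes of 0.28 and 0.14 in sWAT and -0.02 and -0.24 in BAT. Casp12, a caspase tied to endoplasmic reticulum stress in mice, had 0.03 and 0.24. By edgeR, 0 caspase genes in sWAT and Casp6 in BAT had an unadjusted p under 0.05. DESeq2 called 0 of the 5 in either tissue, and limma voom called 0 in sWAT and 2 in BAT, Casp8 higher and Casp6 lower.

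Among the 6 mitochondrial and apoptosome genes, Apaf1 (ENSMUSG00000019979, chromosome 10, 90989311 to 91082770, minus strand), the scaffold of the apoptosome, rose in BAT. It had 11.7, 11.6, 11.4, 10.8 and 9.99 CPM in Ctrl and 15.9, 11.2, 16.6, 17.2 and 16.7 CPM in Csn8AKO libraries. Csn8AKO replicate 2 was within the Ctrl range and the other 4 were well above it. The log2 fold change was 0.49 with a standard error of 0.12 (edgeR, adjusted p = 0.00606). In sWAT every Csn8AKO library (35.7 to 39.5 CPM) was above every Ctrl library (18.7 to 29.0 CPM), but the log2 fold change of 0.56 did not pass (standard error 0.15, edgeR, adjusted p = 0.0594). DESeq2, limma voom, the fit of all 4 groups, the fit with a lymphocyte marker covariate and the fit without ribosomal RNA genes called Apaf1 higher in sWAT.

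Cycs, which encodes cytochrome c and serves respiration as well as death, was the most abundant member per kilobase in BAT, with means of 83.9 and 69.6 CPM per kilobase in Ctrl and Csn8AKO mice. It was at 286 ± 16.4 CPM in Ctrl and 237 ± 42.1 CPM in Csn8AKO BAT (SD, n = 5; edgeR, adjusted p = 0.0763), and Csn8AKO replicate 2, at 311 CPM, stood above the other 4 at 209.7 to 229.8 CPM. Aifm1, which encodes apoptosis-inducing factor, did not overlap in sWAT, with 27.8 to 35.9 CPM in Ctrl and 20.2 to 25.2 CPM in Csn8AKO libraries, and its log2 fold change of -0.39 did not pass (edgeR, adjusted p = 0.136). Both genes were called lower in BAT without Csn8AKO replicate 2 and by limma voom, and Cycs also without the filter on low counts. The nuclease gene Endog and the IAP antagonist genes Diablo and Htra2 were not called. These 3 genes share 35.7% (Endog with Spout1), 21.5% (Diablo with B3gnt4) and 25.6% (Htra2 with Aup1) of their exon bases with a gene on the opposite strand.

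Among the IAP genes, Birc2 (ENSMUSG00000057367, chromosome 9, 7818227 to 7837064, minus strand), which encodes the ubiquitin ligase cIAP1 of the TNF receptor complex, fell in BAT. It had 30.4, 26.4, 30.04, 27.6 and 26.3 CPM in Ctrl and 23.9, 25.0, 19.3, 18.9 and 17.8 CPM in Csn8AKO libraries. Every Csn8AKO library was below every Ctrl library. In edgeR its log2 fold change was -0.42 with a standard error of 0.10 (edgeR, adjusted p = 0.00682), and it was not called with all 4 groups in one fit (adjusted p = 0.0812). In sWAT it was at 34.7 ± 6.53 CPM in Ctrl and 36.4 ± 15.7 CPM in Csn8AKO mice (SD, n = 4), where replicate 2 had 58.4 CPM.

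Birc5 (ENSMUSG00000017716, chromosome 11, 117849251 to 117855743, plus strand) encodes survivin, which acts in cell division as well as in death. In BAT it rose from 1.32, 0.915, 0.516, 0.886 and 0.469 CPM in Ctrl to 2.60, 1.498, 1.51, 1.05 and 2.31 CPM in Csn8AKO libraries. Csn8AKO replicate 4 alone lay within the Ctrl range. By edgeR, the difference on the log2 scale was 1.14 with a standard error of 0.32 (edgeR, adjusted p = 0.0129). Summed CPM of 14 proliferation markers was 15.3 to 32.2 in Ctrl and 34.8 to 78.8 in Csn8AKO BAT. The highest sums were in Csn8AKO replicates 1 and 5, the libraries with the most Birc5. Those libraries also had the highest skeletal muscle marker sums in BAT. The part of dividing cells or of muscle in the rise of Birc5 was not tested. In sWAT Birc5 had 0.519 to 1.40 CPM in Ctrl and 1.65 to 2.90 CPM in Csn8AKO libraries, which did not overlap, with a log2 fold change of 1.31 (standard error 0.36, edgeR, adjusted p = 0.0652). DESeq2, limma voom, the fit of all 4 groups, the fit with a lymphocyte marker covariate and the fit without Ctrl replicate 1 called it higher in sWAT.

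Xiap, the direct inhibitor of caspases, had log2 fold changes of -0.06 in sWAT (95% interval -0.36 to 0.24) and 0.00098 in BAT (-0.16 to 0.17). Birc3, which encodes cIAP2, was at 28.4 ± 5.63 CPM in Ctrl and 45.7 ± 23.2 CPM in Csn8AKO sWAT (SD, n = 4; edgeR, adjusted p = 0.246), with 80.0 CPM in replicate 2. In BAT it had a log2 fold change of 0.18 (edgeR, adjusted p = 0.219).

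The death receptor adaptors were not called. Cflar, which encodes the caspase 8 inhibitor cFLIP, had log2 fold changes of -0.07 in sWAT (95% interval -0.36 to 0.23) and 0.05 in BAT (-0.11 to 0.20). Fadd, the adaptor that recruits caspase 8, had -0.15 and -0.16, and Tradd, the adaptor of the TNF receptor, had 0.37 and 0.22. Of these 3 genes, 0 had an unadjusted p under 0.05 by edgeR in either tissue, and DESeq2 and limma voom called 0.

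Of the necroptosis genes, Ripk1 and Ripk3 rose in BAT. Ripk1 (ENSMUSG00000021408, chromosome 13, 34002363 to 34037147, plus strand), a kinase that can lead to survival or to death, had 25.3, 27.9, 29.4, 32.2 and 30.2 CPM in Ctrl and 34.2, 38.8, 37.2, 36.8 and 33.4 CPM in Csn8AKO libraries. The groups did not overlap, and here Csn8AKO replicate 2 was the highest. This amounted to a log2 fold change of 0.31 with a standard error of 0.08 (edgeR, adjusted p = 0.00883), which no alternative on the same call threshold ended.

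Ripk3 (ENSMUSG00000022221, chromosome 14, 55784995 to 55788865, minus strand), the kinase that activates MLKL, had 2.87, 3.59, 2.50, 3.49 and 3.53 CPM in Ctrl and 6.70, 3.00, 5.98, 5.68 and 6.55 CPM in Csn8AKO BAT. Csn8AKO replicate 2 lay within the Ctrl range. The log2 fold change was 0.81 with a standard error of 0.20 (edgeR, adjusted p = 0.00703). Mlkl, which encodes the protein that breaks the plasma membrane, was at 4.19 ± 0.801 CPM in Ctrl and 5.91 ± 1.61 CPM in Csn8AKO BAT (SD, n = 5; edgeR, adjusted p = 0.0649), and it was called higher by DESeq2 and limma voom, with scaling by library size alone, and without Ctrl replicate 1 or Csn8AKO replicate 2. In sWAT the log2 fold changes of Ripk1, Ripk3 and Mlkl were 0.19, 0.68 and -0.05, and edgeR called 0 of them, with 0 at an unadjusted p under 0.05 and 0 called by DESeq2 and limma voom.

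**Figure D4:**
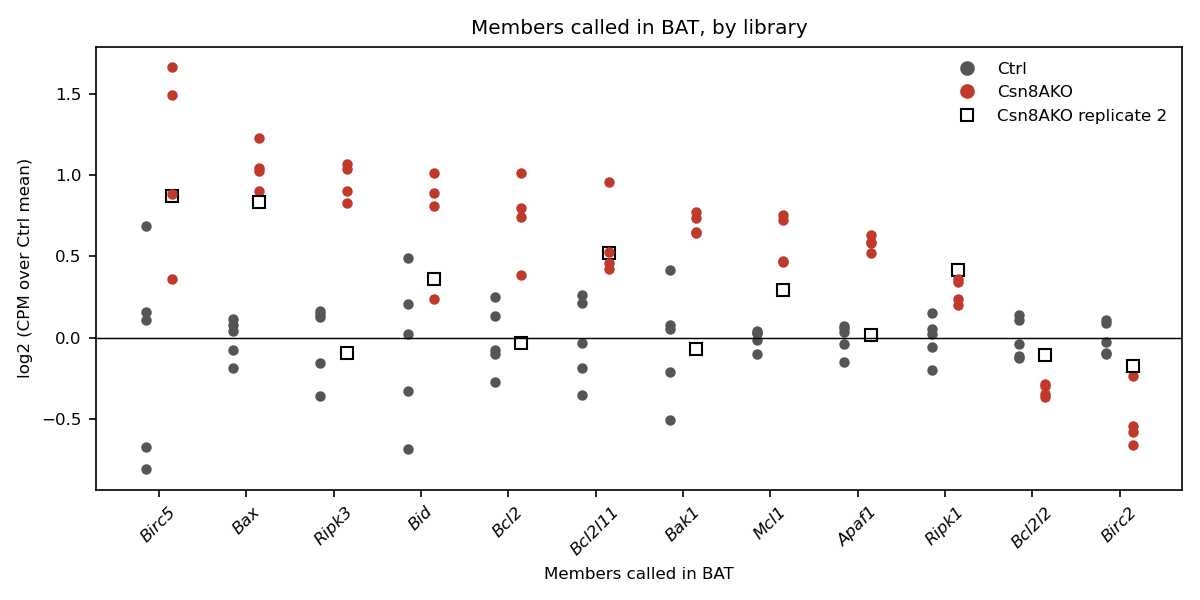
For each of the 12 members called in BAT (x axis), the log2 ratio of CPM to the Ctrl mean (y axis) is plotted for 5 Ctrl libraries (grey) and 5 Csn8AKO libraries (red, with replicate 2 as an open square). Replicate 2 sits among the Ctrl libraries for Ripk3, Bcl2, Bak1, Apaf1 and Bcl2l2, and with the other Csn8AKO libraries for Bax, Bcl2l11 and Ripk1.

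Csn8AKO replicate 2 of BAT thus differed from its group for several members. It had the highest share of Rn18s-rs5 in BAT (12.4%) and the lowest macrophage and fibroblast marker sums among the Csn8AKO libraries (516 and 2736 CPM). Without it, 12 members were higher and 4 were lower, against 10 and 2 with all libraries. Of all genes, 17.7% were then higher and 18.0% lower, against 16.0% and 15.8% with all libraries. With the summed B cell and T cell markers as a covariate, the members called in BAT moved unequally, and Bax and Ripk1 alone were still called. Over all genes, higher calls fell to 6.11% and lower calls to 7.72% with this covariate. For Bax the log2 fold change was 0.88 with the covariate (edgeR, adjusted p = 0.00244) and for Ripk1 it was 0.49 (edgeR, adjusted p = 0.00816), above its value without it. The members that were no longer called ranged from small to large shifts, with log2 fold changes of 0.45 for Bcl2l11, 0.38 for Mcl1, -0.30 for Birc2, 0.36 for Bcl2, 0.26 for Apaf1, 0.41 for Birc5, -0.12 for Bcl2l2, 0.32 for Ripk3, 0.22 for Bak1 and 0.12 for Bid (edgeR, adjusted p 0.0574 to 0.814). T cell markers alone did not overlap between the genotypes of BAT (exact permutation test, p = 0.00794), whereas B cell markers alone overlapped (exact permutation test, p = 0.762). The covariate was thus partly tied to genotype in BAT, and the standard error of Bak1 grew from 0.18 to 0.26 with it. A call lost or kept under this covariate therefore does not sort the members. In sWAT, where those markers were led by 1 library of each genotype, the same covariate gave 4 higher members, Bax, Mcl1, Apaf1 and Birc5. The share of all genes higher in sWAT was 5.48% with the covariate and 2.30% without it.

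Between the tissues, 35 members were tested in both. The log2 fold change was above 0 in both tissues for 15 of them and below 0 in both for 5, above 0 in sWAT alone for 9 and in BAT alone for 6. Bax and Mcl1 were the 2 called in both. Of the 10 members higher in BAT, 9 had a log2 fold change above 0 in sWAT, down to 0.03 for Bid, and the exception was Bcl2. Of the 2 lower in BAT, Bcl2l2 was below 0 in sWAT and Birc2 was not. Over all genes tested, 10050 of 18843 were above 0 in sWAT and 11286 of 22345 in BAT. The shares of all genes with the same direction in both tissues were not computed, so these counts do not show that the tissues were alike. When the genotype effects of the tissues were compared with each other in a fit of the 18 libraries, 0 of 37 members tested passed an adjusted p of 0.05 by edgeR, against 2.36% of 22509 genes (1.61% higher and 0.755% lower in BAT), and 3 had an unadjusted p under 0.05 (Bcl2, Bid and Casp6). DESeq2 called 0 members and limma voom called 1, Bcl2. The smallest p was that of Bcl2, whose log2 fold change was 0.78 higher in BAT (95% interval 0.13 to 1.42; edgeR, adjusted p = 0.217). For Bax the difference between tissues was 0.27 (-0.09 to 0.64) and for Mcl1 it was -0.09 (-0.37 to 0.19). In simulated counts with 200 changed genes, this comparison recovered 0.5% of genes changed by 0.75 and 69.0% of those changed by 1.5 on the log2 scale. The 0 calls therefore do not show that the effects in the tissues were alike.

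Genes around the members gave the following counts, and no list was tested as a set. Of all genes tested, 2.30% rose and 3.00% fell in sWAT, and 16.0% rose and 15.8% fell in BAT. A list of death receptors, ligands and partners such as Traf1 held 19 tested genes. Of these, 2 rose and 0 fell in sWAT, and 6 rose and 2 fell in BAT. Eda2r, a receptor of the TNF family and a p53 target, rose from 1.61 ± 0.253 to 5.19 ± 1.08 CPM in sWAT (SD, n = 4; edgeR, adjusted p = 0.00612) and from 1.13 ± 0.124 to 3.06 ± 0.722 CPM in BAT (SD, n = 5; edgeR, adjusted p = 5.35e-05). Tnfrsf21, the death receptor DR6, rose in sWAT by 0.90 on the log2 scale (edgeR, adjusted p = 0.00716), and Traf1 in BAT by 1.26 (edgeR, adjusted p = 0.000294). A list of executioner and inflammatory caspases and nucleases, which also holds Parp1, had 10 tested genes. Of these, 1 rose in sWAT, the lysosomal nuclease gene Dnase2a (log2 fold change 0.81, edgeR, adjusted p = 0.0330), and 2 rose and 2 fell in BAT. Casp1, the inflammasome caspase, rose in BAT by 1.66 on the log2 scale (edgeR, adjusted p = 0.000326), and Parp1, a DNA repair enzyme cut by executioner caspases, had -0.56 there (edgeR, adjusted p = 0.000614).

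Of 19 p53 axis genes, 2 rose in sWAT and 9 in BAT, and 0 fell in either tissue. Over all genes, 2.30% rose in sWAT and 16.0% in BAT, and 3.00% and 15.8% fell. Cdkn1a, the cell cycle inhibitor p21, rose from 11.7 ± 2.55 to 56.3 ± 15.3 CPM in sWAT (SD, n = 4; edgeR, adjusted p = 0.00150), and Trp53inp1 by 0.71 on the log2 scale (edgeR, adjusted p = 0.0386). In BAT, Dapk1 rose from 37.3 ± 7.91 to 129 ± 16.6 CPM (SD, n = 5; edgeR, adjusted p = 1.22e-06) and Zmat3, a p53 target, from 20.2 ± 1.12 to 39.2 ± 4.02 CPM (SD, n = 5; edgeR, adjusted p = 3.40e-06). For the 0 that fell, edgeR gave 1 gene below 0 at an unadjusted p under 0.05 in each tissue, DESeq2 called 0, and limma voom called 0 in sWAT and 1 in BAT.

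Of 11 pyroptosis and necroptosis partners, 3 rose and 1 fell in sWAT (all genes: 2.30% and 3.00%). In BAT, 6 rose and 1 fell (all genes: 16.0% and 15.8%). Gsdme, a pore former cut by caspase 3, rose in sWAT by 1.10 on the log2 scale (edgeR, adjusted p = 0.00813), and Zbp1, a sensor upstream of RIPK3, in BAT by 1.36 (edgeR, adjusted p = 0.000378). Ppm1b, a phosphatase that acts on RIPK3, fell in both tissues, with log2 fold changes of -0.73 in sWAT (edgeR, adjusted p = 0.0140) and -0.63 in BAT (edgeR, adjusted p = 0.000390). In a list of other IAP family genes that also holds Septin4, 1 of 7 rose in sWAT and 1, Septin4 itself, fell. In BAT 3 of 6 rose (all genes: 16.0%). Naip2, an inflammasome sensor, rose by 1.12 in sWAT (edgeR, adjusted p = 0.0152) and by 1.33 in BAT (edgeR, adjusted p = 1.66e-05) on the log2 scale, Naip5 by 1.49 in BAT (edgeR, adjusted p = 7.61e-05), and Septin4, which encodes an XIAP antagonist, had -0.78 in sWAT (edgeR, adjusted p = 0.0473). Naip2, Naip5, Casp1 and Zbp1 are known mainly from myeloid cells, whose macrophage markers were called higher for 11 of 18 in sWAT and 15 of 18 in BAT, and their part in these rises was not tested.

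Among the other BCL2-related genes, 2 of 19 rose and 1 fell in BAT (all genes: 16.0% and 15.8%). Bcl2l10 had a log2 fold change of 1.56 (edgeR, adjusted p = 0.00676) and Bag4 of -0.48 (edgeR, adjusted p = 0.00477) there. Of 18 tested in sWAT, 0 were called by edgeR, against 5.31% of all genes. By the same test, 1 of them was above 0 and 2 were below 0 at an unadjusted p under 0.05, DESeq2 called 0, and limma voom called 2 lower.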

How the data were processed

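Total RNA of whole sWAT and BAT was depleted of ribosomal RNA and sequenced as paired reads of 150 bases. The authors aligned the reads with STAR to the mouse genome with Ensembl release 101 and counted uniquely aligned, unambiguous reads per gene with featureCounts. The strand used in counting is not given in the sources used here. The deposited values used here are raw counts of 55487 genes in 18 libraries, and the CPM, FPKM and TPM columns beside them were not used. Groups came from the sample labels.

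Counts were analysed within each tissue in R 4.3.3 with edgeR 4.0.16, by TMM normalization, filterByExpr (minimum count 10, minimum total 15) and the robust quasi-likelihood test of Csn8AKO against Ctrl. P-values were adjusted by Benjamini-Hochberg over all genes tested, with a threshold of 0.05 for a call. The study used DESeq2. Here DESeq2 1.42.0 and limma voom (limma 3.58.1) were alternatives, beside RLE scaling, library size alone, other filters, removal of ribosomal RNA genes, a replicate block, all 4 groups in one fit, a lymphocyte marker covariate, a log2 fold change of at least 0.75, and each library left out. The interaction of genotype and tissue was fitted over all 18 libraries. Summed markers were compared by exact permutation (two-sided), which cannot go below p = 0.0286 for 4 against 4 or 0.00794 for 5 against 5. Levels of different genes were compared as CPM per kilobase of exon.

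All 38 members were accounted for by role and every called member was named. Values of each library were given for members called in sWAT, for at most 16 called in BAT and for Bax, Bcl2, Casp8 and Casp9, and of each other gene list the 2 genes called at the smallest adjusted p were named. The members and lists were chosen with earlier results of these data known. In simulated counts, a log2 change of 0.75 was recovered for 0.0% of 200 changed genes in sWAT and 57.0% in BAT, and a change of 1.5 for 75.5% and 95.5%. For the interaction the recovered shares were 0.5% at 0.75 and 69.0% at 1.5. The 200 changed genes of each run were drawn from the better counted ones, and no other gene was changed. In the data, 1000 genes were called in sWAT and 7121 in BAT, so that the adjusted p threshold was easier to pass. The shares are therefore no direct measure of recovery in the data, where Bax (0.73) and Mcl1 (0.63) were called in sWAT. No libraries agreed within sampling noise. Promoters came from RefSeq (GRCm38.p6) and coding sequences from GENCODE M21. Python 3.11.15, pandas 2.3.3, scipy 1.17.1 and matplotlib 3.10.9 were used for tables and figures.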

Additional observations from a re-analysis of the deposited data

Results flagged for a closer look

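In 9 of 142 groups of member values (6.34%), 1 library stood apart from the rest of its group by Dixon's criterion, which chance meets in about 1 of 20 groups. In Csn8AKO sWAT, replicate 2 had 51.6 CPM of Bcl2, against 24.8 to 28.3 CPM in the others, and 20.2 CPM of Aifm1, against 24.5 to 25.2 CPM. Replicate 4 of the same group had 4.11 CPM of Endog, against 0.972 to 1.13 CPM. In Csn8AKO BAT, replicate 2 had 17.1 CPM of Bak1 (others 28.0 to 30.8 CPM), 11.2 CPM of Apaf1 (others 15.9 to 17.2 CPM), 311 CPM of Cycs (others 209.7 to 229.8 CPM) and 3.00 CPM of Ripk3 (others 5.68 to 6.70 CPM). Replicate 1 of that group had 16.0 CPM of Bcl2l11, against 11.1 to 11.9 CPM. In Ctrl BAT, replicate 1 had 10.6 CPM of Bbc3, against 4.04 to 5.57 CPM.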

How the results depend on the processing

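The 2 members higher in sWAT became 0 with library size alone, with the replicate block, with a log2 fold change of at least 0.75, and without Csn8AKO replicates 3 and 4 (an alternative chosen after seeing the data). They became 1 without the filter on low counts, and 4 by DESeq2, by limma voom, in a single fit of all 4 groups and with the lymphocyte marker covariate. With each library left out they ranged from 0 to 3. Over all genes, 2.30% were higher in sWAT in the main fit, 0.563% with library size alone and 0.711% with the replicate block. The share was 4.84% by DESeq2, 5.72% by limma voom, 4.64% in the fit of all 4 groups and 5.48% with the covariate. The 10 members higher in BAT became 2 with the covariate and 3 with the fold threshold, and ranged from 8 to 12 with a library left out. With the covariate, which was partly tied to genotype in BAT, the share of all genes called higher there also fell, from 16.0% to 6.11%. The 2 lower in BAT became 1 with library size alone, 5 by limma voom, and 0 with all 4 groups in one fit, with the covariate and with the fold threshold, and ranged from 2 to 4. The 0 members with a higher effect in BAT than in sWAT became 1 by limma voom (Bcl2) and 1 without Csn8AKO replicates 3 and 4 of sWAT (Hrk), and ranged from 0 to 1 with a library left out (Bcl2 without sWAT Csn8AKO replicate 2, Hrk without replicate 3). The 0 with a lower effect became 1 without those replicates 3 and 4 (Birc2). Hrk had 0, 0, 14 and 1 reads in Csn8AKO sWAT replicates 1 to 4, so that its calls without replicate 3 rest on counts at or near 0. The cause of these shifts was not tested. Of 278 fold changes of called members under an alternative, 236 were still called and 0 took the other sign. With library size alone, the share of higher genes among all calls moved from 43.4% to 24.4% in sWAT and from 50.3% to 66.7% in BAT. Same-numbered libraries did not deviate together (correlations -0.42 to 0.24 in sWAT and -0.13 to 0.14 in BAT), so the numbers were not taken as pairs. With the replicate block in sWAT, the log2 fold changes were 0.74 for Bax (edgeR, adjusted p = 0.119) and 0.63 for Mcl1 (edgeR, adjusted p = 0.104), and the block left 10 higher and 2 lower members in BAT and 0 called members in the interaction.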
